A study of Mus musculus with 9 samples.

Results

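The genes described here belong to 8 families of transcription factors that pattern the embryo: the Fox (forkhead), Gata (zinc finger), Hox (clustered homeobox), Klf (Krüppel-like zinc finger), Pax (paired box), sine oculis homeobox (Six2, Six4 and relatives), Sox (HMG box) and Tbx (T-box) families. Members were chosen by gene symbol alone: a family name followed by its number, on probe sets that carry a single symbol, leaving out Sox17, Gata2 and Foxm1. The rule found 103 of the 8251 genes with 1 symbol on the array, measured by 141 of 12422 probe sets. By family these were 25 Fox genes, 5 Gata, 32 Hox, 12 Klf, 8 Pax, 5 of the sine oculis family, 12 Sox and 4 Tbx. The rule also takes in Hoxa11os, a non-coding antisense RNA of the HoxA cluster, which was not above the detection limit on any array.

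Lung RNA of C57BL6 mice in 3 groups was hybridised to 9 Affymetrix arrays, 3 per group, in an asthma model induced with ovalbumin (OVA), the egg white protein used as allergen. The mice were challenged with saline, with OVA, or with OVA together with an agonist of EP3, an inhibitory receptor for prostaglandin E2. The titles of the OVA and agonist arrays give 24 h. All 3 groups share the strain and the tissue, and the agonist's identity and dose, the age and sex of the mice, their sensitisation and the time of the saline arrays are not stated in the labels. The labels do not say whether arrays of a group are separate mice, so p-values measure the spread between these samples, which may be technical.

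Most members are known as builders of the lung and other organs in the embryo, and a subset stays active in the adult tissue in restricted cell types. Foxa and Foxj1 factors act in airway epithelium, Foxf1, Tbx2, Tbx3 and the anterior Hox genes in the mesenchyme, Sox7, Sox18, Klf2 and Klf4 in blood vessels, and Gata3 in the T helper and innate lymphoid cells that drive allergic inflammation. Each recognises a short DNA motif, and members of a family share much the same motif.

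Promoters of called members and of Hox members near the threshold are shown, to set the results beside the sequences of these genes. RefSeq windows of the 150 bases before the transcription start (build GRCm38.p6) were held for 69 of the 103 genes, in 84 windows. The sequences below are those of the genes past the test in a comparison, and of the Hox genes with separate OVA and saline groups and an adjusted p under 0.1, as far as a window was held. Of the called members these are Foxk2 and Six4; Pax4, Hoxb6, Sox18 and Tbx3 are named only. Hoxa2, Hoxa6 and Hoxd8 did not pass the test. They are written 5′ to 3′ on the strand of the gene. Capitals mark matches, on either strand, to the letters searched in every window. For Klf factors these were CACCC, for Gata factors AGATAA, for Sox factors ACAAT, for Fox factors GTAAACA, for Hox and other homeobox factors TAATTA, and for Tbx factors AGGTGTGA. The general promoter elements were the GC box, spelled GGGCGG, the CCAAT box, and the TATA box, spelled TATAAA. Motifs were counted independently, and matches may overlap.
Foxk2 chr11:121259837-121259986 (+): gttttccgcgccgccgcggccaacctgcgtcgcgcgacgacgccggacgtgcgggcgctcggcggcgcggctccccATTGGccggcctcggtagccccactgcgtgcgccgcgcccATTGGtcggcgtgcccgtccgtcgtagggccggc
Hoxa2 chr6:52164832-52164981 (-): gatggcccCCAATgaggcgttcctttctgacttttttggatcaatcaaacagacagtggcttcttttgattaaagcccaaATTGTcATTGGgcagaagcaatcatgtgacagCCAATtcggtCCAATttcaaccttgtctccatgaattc
Hoxa6 chr6:52208673-52208822 (-): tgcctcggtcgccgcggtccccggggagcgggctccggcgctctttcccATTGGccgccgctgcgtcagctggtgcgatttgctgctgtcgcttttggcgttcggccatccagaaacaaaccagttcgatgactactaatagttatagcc
Hoxd8 chr2:74704465-74704614 (+): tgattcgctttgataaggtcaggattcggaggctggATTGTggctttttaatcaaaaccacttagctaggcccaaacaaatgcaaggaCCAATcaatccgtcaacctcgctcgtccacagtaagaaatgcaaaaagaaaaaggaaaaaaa
Six4, nearer window, chr12:73113246-73113395 (-): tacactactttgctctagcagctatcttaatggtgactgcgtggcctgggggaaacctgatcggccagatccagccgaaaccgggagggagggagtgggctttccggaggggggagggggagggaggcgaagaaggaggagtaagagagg
Six4, farther window, chr12:73113426-73113575 (-): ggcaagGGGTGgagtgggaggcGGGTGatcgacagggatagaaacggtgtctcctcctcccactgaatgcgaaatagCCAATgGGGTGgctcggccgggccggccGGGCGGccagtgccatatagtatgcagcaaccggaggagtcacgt

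These windows differ in base composition: the G and C share was 78.7% for Foxk2, 61.3% for Hoxa6, 60% and 63.3% for the Six4 windows, 43.3% for Hoxa2 and 41.3% for Hoxd8. A CCAAT match stands in 5 of the 6, 2 times in Foxk2 and 4 times in Hoxa2, and the nearer Six4 window holds none of the motifs searched. Across families, 33 of 84 member windows (39.3%) held CCAAT against 8047 of 32851 windows of all genes (24.5%). GGGCGG stood in 36.9% of member windows and 28.6% of all, CACCC in 39.3% and 37.4%, ACAAT in 11.9% and 17.4%, AGATAA in 2.38% and 5.65%, TAATTA in 3.57% and 2.73%, GTAAACA in 2.38% and 1.80%, AGGTGTGA in 1.19% and 0.63%, and TATAAA in 4.76% and 7.57%. The member windows were richer in G and C (median 60.3% against 54.0%) and in CpG pairs, the dinucleotide that marks CpG island promoters: the median ratio of observed to chance CpG was 0.713 against 0.405, and 49 of 84 member windows (58.3%) exceeded 0.6 against 36.4% of all. These are shares of letters in a window, with no test of the difference, and a match is not evidence of binding.

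Values are the deposited intensities, a linear measure of hybridisation per probe set, after each array was scaled to 1 common mean. A probe set counts as above the detection limit on an array where its scaled intensity exceeds 44.7, the 40th percentile of all values, and was tested where it did so on at least 3 of the 9 arrays. Intensities of different probe sets are not comparable with each other. Between 59.6% and 60.6% of probe sets were above the limit on each array, and all 3 alveolar type 2 cell markers on the array were above it. Arrays of a group correlated with each other at 0.907 to 0.925 in saline, 0.917 to 0.926 in OVA, and 0.879 to 0.914 in the agonist group, where replicate 3 had the lower values and correlated at 0.904 with OVA replicate 3.

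Of the 141 member probe sets, 58 (for 49 genes) were above the limit on all 9 arrays, 16 on 3 to 8, 5 on 1 or 2, and 62 on none. Testing was thus possible for 74 probe sets (52.5%) of 61 genes, against 63.8% of all probe sets. For 38 genes no probe set was above the limit on any array, Gata1 among them. Of the 30 genes with several probe sets, 12 had 1 above the limit on 9 arrays and another on none, including Klf4, Gata6, Foxk2 and Hoxa4, so that a low probe set alone does not speak for its gene. By family, the tested probe sets were 15 of 30 for Fox, 4 of 8 for Gata, 17 of 40 for Hox, 15 of 18 for Klf, 4 of 9 for Pax, 4 of 8 for the sine oculis family, 11 of 20 for Sox and 4 of 8 for Tbx.

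Hox genes lie in 4 clusters and are numbered by paralogue from the end expressed earliest and most anteriorly. Hoxa2, Hoxa4, Hoxa5, Hoxa6, Hoxb5, Hoxb6, Hoxb7, Hoxb8, Hoxb13, Hoxc8 and Hoxd8 were above the limit on all 9 arrays. Hoxa13 was above it on 7 arrays, Hoxb1, Hoxb3 and Hoxc4 on 6, Hoxc5 on 2 and Hoxd10 on 1, and the others on none. Apart from Hoxb13 and Hoxa13, the Hox genes above the limit on more than 2 arrays had paralogue numbers from 1 to 8.

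**Figure D1:**
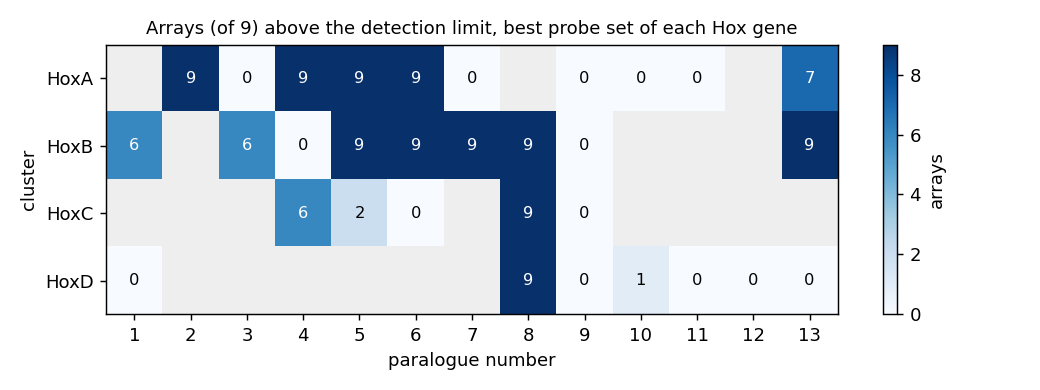
Number of the 9 arrays on which the best probe set of each Hox gene exceeded the detection limit, by cluster (rows) and paralogue number (columns). Grey squares are positions with no gene among the members. Most squares at 9 lie at paralogues 4 to 8, with Hoxb13 at 9 and Hoxa13 at 7 as the exceptions at the posterior end.

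The first comparison, OVA against saline, asks what the allergen challenge did to these genes in the lung. Of the members, 6 probe sets, each of a different gene, fell and none rose (6 of 74, 8.11%; limma, Benjamini-Hochberg adjustment over all 7920 tested probe sets): Pax4, Six4, Foxk2, Hoxb6, Sox18 and Tbx3. Over all tested probe sets 9.49% passed, 5.08% higher and 4.42% lower, so the members' share of calls lay near the background. Below that threshold, 29 member probe sets were lower and 1 higher at an unadjusted p under 0.05, where 17% and 12.1% of all tested probe sets were. The arrays of OVA and saline did not overlap for 35 member probe sets (47.3%), 32 lower and 3 higher, against 37.6% of all, 22% lower and 15.5% higher.

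The members' changes lay mostly on 1 side of 0. The log2 change from saline to OVA was below 0 for 64 of 74 member probe sets (86.5%) and for 59.96% of all tested probe sets, with medians of -0.33 and -0.08. Within the arrays numbered 1, 2 and 3 the members' median was -0.45, -0.34 and -0.18, and that of all tested probe sets -0.10, -0.07 and -0.06. Of the tested member probe sets, 8 were above the limit on no array of some group, and a rule that tested a probe set by its mean over all 9 arrays, chosen after seeing the data, gave 60 of 67 below 0. By family the median change was -0.22 for Fox, -0.28 for Gata, -0.39 for Hox, -0.33 for Klf, -0.71 for Pax, -0.58 for the sine oculis family, -0.30 for Sox and -0.46 for Tbx. The Pax median rests in part on Pax3, which had most arrays under the limit, so its size is not reliable. All 15 Klf probe sets and all 4 each of the Pax, sine oculis and Tbx families were below 0, as were 11 of 15 Fox, 3 of 4 Gata, 14 of 17 Hox and 9 of 11 Sox probe sets. In whole tissue, fewer cells of a type and less RNA per cell cannot be told apart. Of 4 macrophage markers, Marco was above the limit on no array, and the sum over the 4, with the brightest probe set of each, was 554 to 648 in saline, 922 to 1161 in OVA and 637 to 897 with the agonist. Both tested macrophage markers rose in OVA. The sum of 4 neutrophil markers, Ly6g above the limit on none, was 485 to 641 in saline, 488 to 677 in OVA and 526 to 3920.1 with the agonist. Their part in the members' values was not tested.

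The second comparison, agonist against OVA, asks whether the EP3 agonist altered the response. Pax4, Six4 and Hoxb6 were higher with the agonist, and no member was lower (3 of 74, 4.05%; limma, adjusted over all tested probe sets), where 2.75% of all tested probe sets passed, 1.25% higher and 1.5% lower. At an unadjusted p under 0.05, 23 member probe sets were higher and 0 lower, where 14.2% and 10.1% of all were. The groups did not overlap for 25 member probe sets (33.8%), 23 higher and 2 lower (Foxj1 and Foxn3), against 29.9% of all, 17.8% higher and 12% lower. The change was above 0 for 62 of 74 member probe sets (83.8%) and 58.2% of all, with medians of 0.34 and 0.06, and by family it ranged from 0.16 (Gata and Klf) to 0.53 (Tbx). Within the arrays numbered 1, 2 and 3 the members' median was 0.46, 0.19 and 0.11, against 0.07, 0.06 and 0.03 for all. Both comparisons use the same 3 OVA arrays, so an OVA array that is low by chance moves both, in opposite directions.

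The third comparison, agonist against saline, does not involve the OVA arrays. No member passed the test by limma, and 0.0758% of all tested probe sets did. At an unadjusted p under 0.05, 2 member probe sets were lower (Foxk2 and Klf4) and 0 higher, where 4.09% of all were lower and 3.62% higher, 7.71% in all. Of 74 member probe sets, 42 were below 0 and 32 above, with a median of -0.04 against -0.00 for all. The groups did not overlap for 4 (5.41%, against 13.7% of all, 7.03% lower and 6.63% higher): Foxk2 and Klf4 were lower and Tbx2 and Tbx6 higher with the agonist. None of these results shows that the agonist and saline groups were alike.

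**Figure D2:**
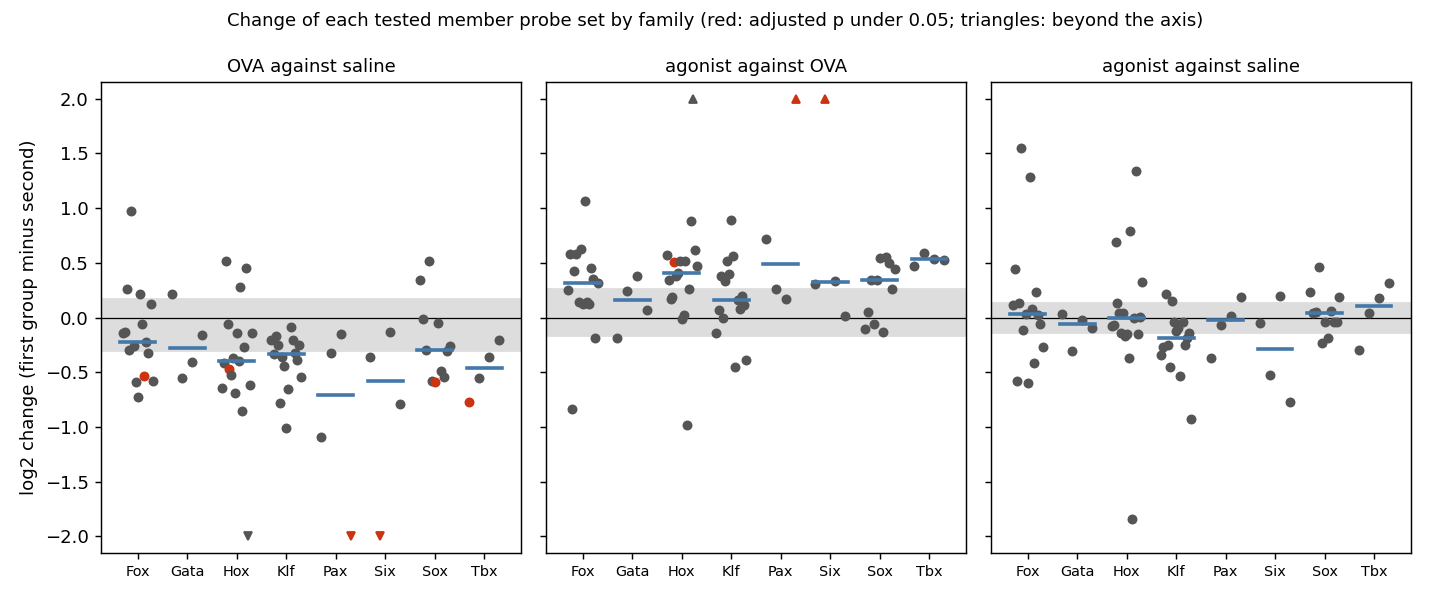
Log2 change of each of the 74 tested member probe sets by family in the 3 comparisons; red marks an adjusted p under 0.05, blue bars the family medians, the grey band the middle 50% of all tested probe sets, and triangles values beyond the axis. Most points lie below 0 in OVA against saline (64 of 74), above 0 in agonist against OVA (62 of 74), and on both sides in agonist against saline (32 above 0).

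Pax4, a paired box factor known for the development of insulin-producing cells of the pancreas, had the smallest adjusted p among the members. Its probe set (99908_at) read 75.8, 91.5 and 71.5 on the saline arrays, -33.3, -98.1 and -92.1 on the OVA arrays, and 94.3, 71.8 and 108 with the agonist. All saline and agonist arrays were above the limit of 44.7, and all OVA arrays were below 0, a value that subtraction of background can give and that carries no level. The intensity was therefore at least 1.77-fold lower in OVA than in saline (79.6 ± 10.5 against -74.5 ± 35.8, SD, n = 3 each; limma adjusted p = 9.94e-06), and at least 2.01-fold higher with the agonist than in OVA (91.3 ± 18.2; limma adjusted p = 7.38e-06). These p-values rest on OVA values replaced by 1 common floor of 3.10, which have no spread. On the whole array 10 probe sets were above the limit on all saline and agonist arrays and on no OVA array, 2 of them members (Pax4 and Hoxb3). Of the 10, 2 were at or below 0 on all OVA arrays, 1 of them Pax4. With the arrays' mean as the rule for testing, Pax4 was not tested.

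Six4, a homeobox factor with a part in forming skeletal muscle, was measured by 3 probe sets that differed in size of change. The first (93000_g_at) read 84.5, 72.0 and 99.3 in saline, -20.6, 2.88 and -5.65 in OVA, and 106, 32.7 and 58.4 with the agonist. It was at least 1.89-fold lower in OVA than in saline (limma adjusted p = 0.00202). The agonist arrays lay above the OVA arrays (limma adjusted p = 0.00306), 1 of them under the limit. As for Pax4, all OVA values lay under the floor of 3.10 and were set to it, so that these p-values rest on OVA values without spread. With all values held at the detection limit the changes were -0.92 (limma adjusted p = 0.0674) and 0.54 (limma adjusted p = 0.273). The second (92999_at) read 119.9, 132 and 121 in saline, 89.6, 97.0 and 104 in OVA, and 134, 114 and 112 with the agonist, with groups that did not overlap in either comparison (-0.36 and 0.31 on the log2 scale; limma adjusted p = 0.0697 and 0.128). The third (93001_at) had a log2 difference of -0.14 from saline to OVA (limma adjusted p = 0.52).

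Hoxb6, a homeobox gene of the HoxB cluster active in embryonic lung mesenchyme, had 1 probe set well above the limit on every array. It read 169, 186 and 178 in saline, 122, 124 and 139 in OVA, and 175, 192 and 181 with the agonist, so that the OVA arrays lay below all others. The fall was 1.39-fold (178 ± 8.50 to 128 ± 9.30, SD, n = 3; log2 change -0.47 ± 0.09 SE, limma adjusted p = 0.0244), and the agonist group was 1.43-fold above OVA (183 ± 8.71; 0.51 ± 0.09, limma adjusted p = 0.0398). Agonist and saline differed by 0.04 ± 0.09 (limma adjusted p = 0.938). The fall from saline did not pass without OVA replicate 1 or 2 or without any 1 saline array (adjusted p up to 0.0922), and the agonist difference did not pass without agonist replicate 1 or 2, OVA replicate 1 or 2, or any 1 saline array (up to 0.146).

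Tbx3, a T-box repressor of embryonic mesenchyme, read 237, 291 and 324 in saline, 139.9, 184 and 177 in OVA, and 247, 250.4 and 198 with the agonist. It fell 1.70-fold in OVA (284 ± 44.0 to 167 ± 23.6, SD, n = 3; -0.77 ± 0.17 SE, limma adjusted p = 0.0336), and all agonist arrays lay above all OVA arrays with no pass (0.47 ± 0.17, limma adjusted p = 0.141). The fall did not pass without any 1 OVA or any 1 saline array (adjusted p up to 0.108). Tbx2, its close relative, was measured by 2 tested probe sets that moved alike. The brighter (92705_at) read 552, 562 and 551 in saline, 509, 389.7 and 410.2 in OVA, and 635, 586 and 667 with the agonist, where all 3 arrays exceeded all saline arrays. Its changes were -0.36 ± 0.11 from saline to OVA and 0.54 ± 0.11 from OVA to agonist (limma adjusted p = 0.0878 and 0.0547). The other (104655_at) had log2 differences of -0.56 and 0.59 (limma adjusted p = 0.1 and 0.112). Tbx6, a factor of the paraxial mesoderm, read 115, 115 and 111 in saline, 79.9, 121 and 99.4 in OVA, and 166, 132 and 132 with the agonist (0.53 above OVA, limma adjusted p = 0.107).

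In OVA against saline, 2 of 12 tested probe sets (9 genes) of the mesenchymal list were lower, Hoxb6 and Tbx3, against 4.42% of all. In agonist against OVA 1 of the 12 was higher, Hoxb6, against 1.25% of all. The list's median log2 difference was -0.54 from saline to OVA and 0.49 from OVA to agonist, against -0.08 and 0.06 for all tested probe sets. Foxf1, a forkhead factor needed for lung mesenchyme and capillaries, read 275, 244 and 281 in saline, 129.7, 126 and 257 in OVA, and 269, 141 and 143 with the agonist. Its groups overlapped in both comparisons (-0.72 ± 0.34 and 0.13, limma adjusted p = 0.198 for the first). Hoxa5, which the embryonic trachea and lung require, was close in all groups: 339, 310.3 and 365 in saline, 333, 264 and 389 in OVA, and 361, 420.2 and 336 with the agonist (-0.06 from saline to OVA, limma adjusted p = 0.846). Hoxb5, which takes part in airway branching, had a log2 difference of -0.53 (limma adjusted p = 0.341). The 5 smooth muscle markers, all above the limit, moved the other way: their summed intensity was 2859 to 3127 in saline, 4166 to 5002 in OVA and 3172 to 3509 with the agonist, and 2 of the 5 rose in OVA. Their part in the result was not tested.

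Several other Hox genes had separate groups without passing. Hoxa2, the most anterior gene of the HoxA cluster above the limit, read 122, 140.1 and 133 in saline, 95.5, 105 and 95.4 in OVA, and 111, 125 and 143 with the agonist. Its log2 differences were -0.41 ± 0.11 from saline to OVA and 0.35 from OVA to agonist (limma adjusted p = 0.0626 and 0.123). Hoxd8 read 78.0, 93.1 and 90.3 in saline, 68.1, 71.3 and 62.7 in OVA, and 87.6, 83.3 and 97.6 with the agonist. The same differences for Hoxd8 were -0.37 ± 0.11 and 0.41 (limma adjusted p = 0.0697 and 0.0781). Hoxa6 read 194, 216 and 238 in saline, 172, 139.6 and 108 in OVA, and 243, 199 and 177 with the agonist. Those for Hoxa6 were -0.65 ± 0.19 and 0.57 (limma adjusted p = 0.0735 and 0.126). In all 3 the OVA arrays were the lowest, and the agonist arrays fell in or near the saline range. Hoxb3, near the limit, was above it on all saline and agonist arrays and on no OVA array, with highest OVA value 41.9 and lowest saline value 46.6 (at least 1.22-fold lower in OVA, limma adjusted p = 0.103). For Hoxa4, a regulator of the neck and thorax pattern, the probe set above the limit on all 9 arrays (162402_r_at) read 204, 182 and 166 in saline, 99.4, 103 and 146 in OVA, and 136, 130.2 and 249 with the agonist. The OVA and saline arrays did not overlap (-0.68 ± 0.27, limma adjusted p = 0.141). A further probe set (97747_r_at) read 374, 393 and 305 in saline, 37.6, -30.2 and 323 in OVA, and 230.1, 312 and 459 with the agonist. As 2 of its OVA arrays lay under the limit, its difference depends on the floor: it was -3.41 with the floor of 3.10 and -2.04 with values held at the limit (limma adjusted p = 0.159 with the floor). A probe set near the limit (97745_at) went the other way, at 5.15, 23.6 and 32.2 in saline and 2.52, 51.9 and 62.5 in OVA. All its saline arrays were under the limit and 1 OVA array was under the floor (0.45, limma adjusted p = 0.839). Hoxa13, a posterior gene, read 139, 84.3 and 79.6 in saline and 29.9, 74.3 and 70.7 in OVA. These groups did not overlap (-0.86, limma adjusted p = 0.682), while the agonist arrays had 1 value below 0 and no clear order. For Hoxa2, Hoxa6 and Hoxd8, the promoter windows printed above each hold CCAAT.

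Hox proteins bind DNA with Pbx and Meis homeobox partners, and Polycomb and trithorax proteins keep Hox clusters silent or active. Of 7 tested probe sets of Hox cofactors none passed in OVA against saline by limma (1 at an unadjusted p under 0.05), and Pbx2 was higher with the agonist. It read 144, 143 and 144 in saline, 109, 105 and 129 in OVA, and 167, 164 and 150.2 with the agonist. The OVA arrays were the lowest and the agonist arrays the highest (-0.33 and 0.49, limma adjusted p = 0.074 and 0.0491). Its call did not hold without OVA replicate 1 or 2, agonist replicate 1 or 2, or any 1 saline array (adjusted p up to 0.173). Of 12 tested Polycomb and trithorax probe sets, 1 rose and 2 fell in OVA. Both that fell were of Kmt2a, the trithorax methyltransferase that maintains Hox expression: it fell by 0.46 in each (278 ± 5.68 to 203 ± 28.9 and 397 ± 11 to 289 ± 19.8, SD, n = 3; limma adjusted p = 0.0481 and 0.0245). Ezh2, the Polycomb methyltransferase that also marks dividing cells, rose from 61.3 ± 2.97 in saline to 88.3 ± 11 in OVA (0.52, limma adjusted p = 0.0371) and was lower with the agonist at 55.7 ± 4.88 (-0.66, limma adjusted p = 0.0421). The latter call was lost without the same 7 arrays as for Pbx2 (adjusted p up to 0.146). Among 10 tested probe sets of lung patterning signals, only Fgf7, a mesenchymal growth factor for epithelium, passed: it fell from 119 ± 10.3 to 81.7 ± 3.66 in OVA and read 116 ± 11.5 with the agonist (-0.54 and 0.50, limma adjusted p = 0.027 and 0.0544).

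**Figure D3:**
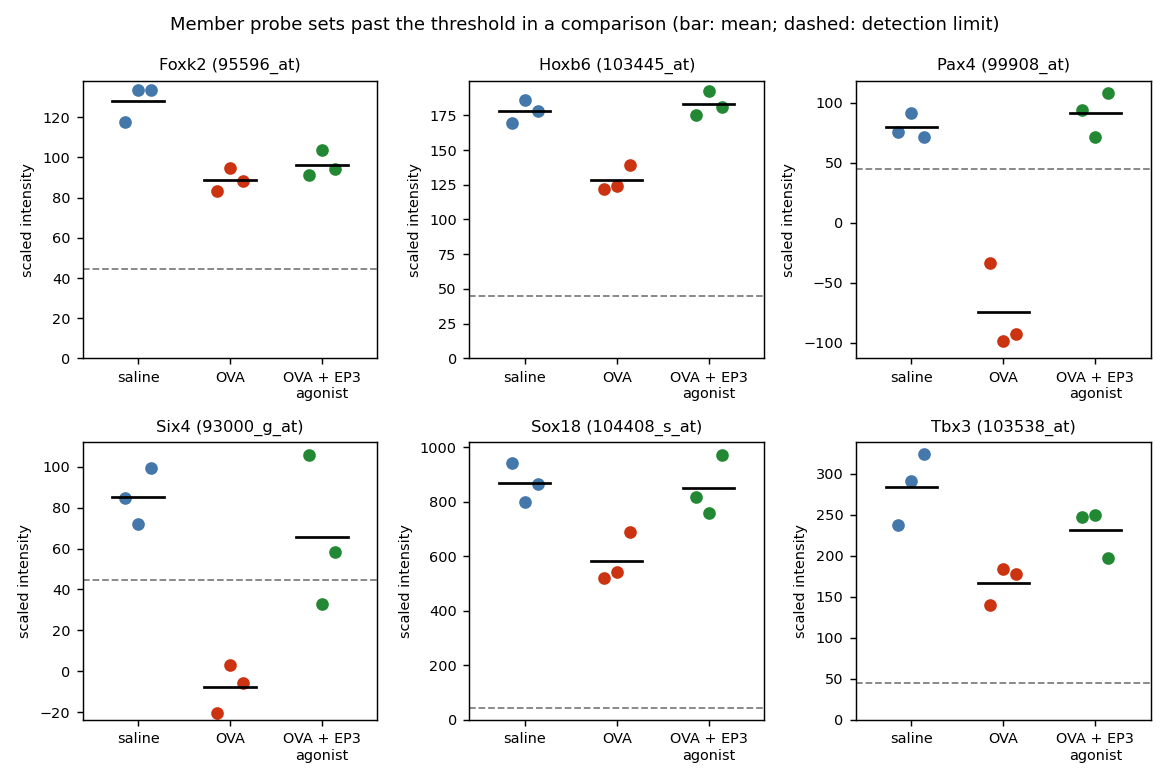
Scaled intensity on each array (dots) of the 6 member probe sets past the test in a comparison, with the group mean (bar) and the detection limit (dashed). The OVA arrays of Pax4 and of Six4 lie under the limit, and for Foxk2 the agonist arrays (91.1 to 104) stay below the saline arrays (118 to 134).

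Foxk2, a forkhead factor that regulates autophagy and glycolysis genes, was the called member whose agonist arrays also lay below every saline array. Its probe set (95596_at) read 118, 133 and 134 in saline, 83.2, 94.5 and 88.2 in OVA, and 91.1, 104 and 94.2 with the agonist, so that neither challenged group overlapped saline. It fell 1.45-fold in OVA (128 ± 9.19 to 88.6 ± 5.68, SD, n = 3; -0.53 ± 0.10 SE, limma adjusted p = 0.0229). The agonist group (96.3 ± 6.56) was 0.12 ± 0.10 above OVA (limma adjusted p = 0.487) and 0.41 below saline (-0.41 ± 0.10, limma adjusted p = 0.383). The fall did not pass without OVA replicate 1 or 2 or saline replicate 2 or 3 (adjusted p up to 0.0879). Foxk2 also has a probe set above the limit on no array.

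Sox18, with Sox7 a regulator of blood and lymphatic vessel formation, was the vascular member that passed. Its probe set 104408_s_at read 943, 799 and 865 in saline, 518, 541 and 687 in OVA, and 817, 760.2 and 971 with the agonist. It fell 1.5-fold in OVA (869 ± 72.0 to 582 ± 91.5, SD, n = 3; -0.59 ± 0.14 SE, limma adjusted p = 0.0457), and with the agonist (849 ± 109) it was 0.55 ± 0.14 above OVA (limma adjusted p = 0.0786). The fall did not pass without OVA replicate 1 or 2, agonist replicate 1 or 2, or any 1 saline array (adjusted p up to 0.146). The other Sox18 probe set (161025_f_at) read 711, 740.3 and 891 in saline, 424, 612 and 653 in OVA, and 803, 745 and 894 with the agonist. Here too the OVA arrays lay below all saline arrays (-0.49 ± 0.18, limma adjusted p = 0.121). Sox7 read 782, 673 and 646 in saline, 373, 471 and 622 in OVA, and 765, 622 and 652 with the agonist. Its log2 differences were -0.55 ± 0.19 and 0.50 (limma adjusted p = 0.106 and 0.161), and OVA replicate 3 lay near the saline and agonist arrays.

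Klf4 and Klf2 are zinc finger factors that keep endothelium quiescent under flow. Klf4 read 1397, 1545 and 1478 in saline, 928, 960.2 and 1167 in OVA, and 1076, 678 and 636 with the agonist. Both challenged groups lay below saline, the agonist group by 0.93 (-0.93 ± 0.20, limma adjusted p = 0.339) and OVA by 0.54 (-0.54 ± 0.20, limma adjusted p = 0.126). Klf2 read 957, 455 and 428 in saline, 361, 629.7 and 683 in OVA, and 387, 454 and 348 with the agonist, with 1 saline array far above the rest (-0.09 ± 0.36 from saline to OVA, limma adjusted p = 0.889). The vascular list of members had 1 of 6 tested probe sets lower in OVA, against 4.42% of all, and a median of -0.54. In agonist against OVA 0 passed by limma, and 3 of 6 had an unadjusted limma p under 0.05, against 24.2% of all tested probe sets.

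The 7 endothelial markers, all above the limit, moved with Sox18. Their summed intensity was 10259 to 10467 in saline, 6983 to 7900 in OVA and 9909 to 10659 with the agonist, with 5 of 7 lower in OVA and 3 of 7 higher with the agonist than in OVA by the brightest probe set of each. Counting any probe set, 6 of the 7 genes were lower in OVA. Their median change from saline to OVA was -0.55, as against -0.59 for Sox18, -0.55 for Sox7, -0.54 for Klf4 and -0.09 for Klf2. Their part in the result was not tested. Of 5 tested genes listed as Klf2 or Klf4 targets, 4 fell in OVA. They were Thbd, which curbs clotting (-0.56, limma adjusted p = 0.0444), Tek, the angiopoietin receptor (-0.57, limma adjusted p = 0.0427), Kdr, a receptor for vascular endothelial growth factor (-0.57, limma adjusted p = 0.0136), and Vegfa, that growth factor itself (-0.71, limma adjusted p = 0.0369). The other, Edn1, did not pass in either probe set (-0.25 and -0.43, limma adjusted p = 0.289 and 0.101). The list does not separate genes that these factors raise from genes that they lower, so the falls do not measure Klf2 or Klf4 activity. Tek and Kdr are also among the 7 markers above, and Tek was higher with the agonist than in OVA (0.69, limma adjusted p = 0.0475), a call lost without OVA replicate 1 or 2, agonist replicate 1 or 2, or any 1 saline array (adjusted p up to 0.17).

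**Figure D4:**
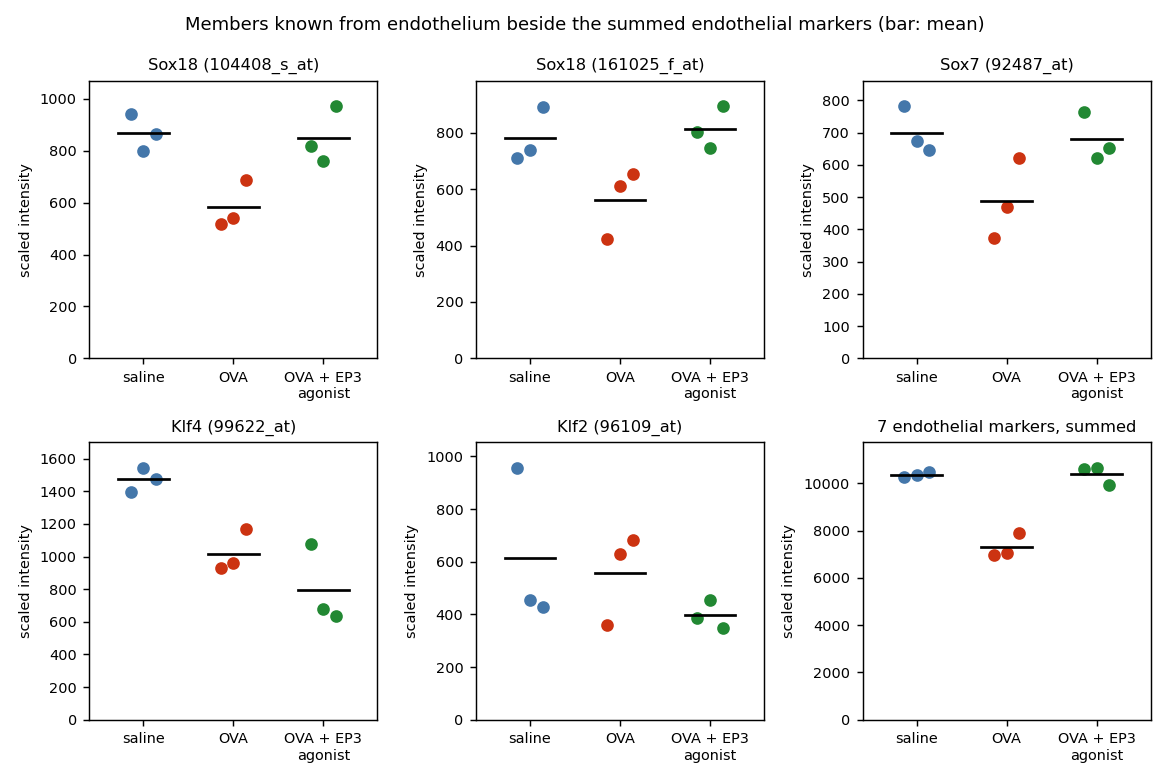
Scaled intensity on each array (dots) with group means (bars) for members known from endothelium, and the summed intensity of 7 endothelial markers. The marker sum and Sox18 are lowest in OVA, Klf4 is lower in both challenged groups than in saline, and Klf2 has 1 saline array at 957 beside 455 and 428.

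Members that respond to stress and glucocorticoids did not pass in any comparison by limma (0 of 9 tested probe sets). From saline to OVA their median was -0.38, 6 of 9 had separate groups and 6 of 9 an unadjusted limma p under 0.05. Of all tested probe sets, 37.6% had separate groups and 29.1% such a p. Klf9, a target of the glucocorticoid receptor, had 2 probe sets that moved alike. The dimmer (93527_at) read 257, 278 and 384 in saline, 136, 126 and 195 in OVA, and 476, 273 and 163 with the agonist (-1.01 ± 0.38 and 0.89, limma adjusted p = 0.127 and 0.202). The brighter (93528_s_at) read 987, 1120.3 and 1500.2 in saline, 645, 785 and 838 in OVA, and 1553, 1184 and 744 with the agonist. Foxo3, which is switched off by insulin and growth factor signals, read 376, 412 and 464 in saline, 252, 276 and 303 in OVA, and 616, 401 and 313 with the agonist. Foxo3 differences were -0.59 ± 0.23 and 0.63 (limma adjusted p = 0.140 and 0.155). In each of these, agonist replicate 1 was the highest of its group and replicate 3 the lowest. The same order held for Klf7, a factor of neurons and fat, at 292, 243 and 162 with the agonist against 326, 317 and 282 in saline and 153, 156 and 239 in OVA (-0.78 ± 0.25, limma adjusted p = 0.0863), and for Klf13, a factor of T cells, at 905, 574 and 499.6 with the agonist.

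Epithelial members did not pass in any comparison by limma (0 of 10 tested probe sets, 8 genes). In OVA against saline their median was -0.18, and 3 of 10 had an unadjusted limma p under 0.05, against 29.1% of all tested probe sets. Sox2, which marks the progenitors of the conducting airway, was one of 3 members whose OVA arrays lay above all saline arrays: 232, 208 and 193 in saline, 296, 246 and 259 in OVA, and 217, 268 and 259 with the agonist (0.34 ± 0.12, limma adjusted p = 0.120). Foxj1, the master factor of ciliated cells, read 311, 333 and 238 in saline, 323, 313 and 317 in OVA, and 283, 285 and 268 with the agonist. All agonist arrays lay just under the OVA arrays (-0.19 ± 0.13, limma adjusted p = 0.4). Foxa1, a pioneer factor of airway epithelium, read 308, 289.7 and 311 in saline and 246, 227 and 292 in OVA (-0.26 ± 0.11, limma adjusted p = 0.162). Gata6, which drives surfactant genes, read 237, 248 and 259.7 in saline, 163, 174 and 232 in OVA, and 221, 284 and 232 with the agonist in 1 probe set (104698_at; -0.40 ± 0.16, limma adjusted p = 0.136). Its brighter probe set (160662_r_at) read 403, 439.8 and 412 in saline, 372, 375 and 376 in OVA, and 319, 434 and 437 with the agonist (-0.16, limma adjusted p = 0.449). Foxa2, its partner in the airway, gave no usable level, with values from -97.4 to 146 and both signs in every group. Klf5, an epithelial growth regulator, and Foxp1, a repressor in airway and lymphocytes, had log2 differences of -0.21 (limma adjusted p = 0.431) and -0.22, and Foxp1 was 0.46 ± 0.14 higher with the agonist than in OVA (limma adjusted p = 0.110). Among 4 tested genes known as targets of Foxa2 and Gata6, Sftpb, a surfactant protein, fell in OVA (-0.49, limma adjusted p = 0.0371). The summed type 1 alveolar cell markers were 12404 to 13489 in saline, 9334 to 10157 in OVA and 12170 to 13357 with the agonist, with 3 of 4 lower in OVA. For type 2 cells the sums overlapped, at 15858 to 19201 in saline, 12814 to 16390 in OVA and 17839 to 18410 with the agonist, with 1 of 3 lower. Those of club cells were 13672 to 17134, 10388 to 13232 and 15116 to 15370, with 1 of 2 lower. No ciliated cell marker was tested. The part of these cell types in the members' values was not tested.

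Gata3, the factor that directs type 2 helper T cells, had a small change with separate groups: 84.2, 84.0 and 84.3 in saline, 89.6, 96.8 and 108 in OVA, and 82.1, 99.7 and 77.5 with the agonist (0.21 ± 0.12, limma adjusted p = 0.263). Of 5 genes on the array known as its targets, only Il5 was above the limit often enough to test, and it did not pass (-0.10 from saline to OVA). Few T cell markers were above the limit: of 6 on the array Cd3e, Cd3g and Cd8a were above the limit on none, and the summed markers were 227 to 292 in saline, 271 to 426 in OVA and 314 to 343 with the agonist. Their part in the result was not tested. In the lymphocyte list, 0 of 10 tested member probe sets passed by limma in OVA against saline, with a median of -0.14. An unadjusted limma p under 0.05 was seen for 1 of the 10, against 29.1% of all tested probe sets. Pax5, the factor of B cell identity, had a log2 difference of -0.15 (limma adjusted p = 0.680), and Sox4, needed for B and T cell precursors, differences of -0.01 and -0.05 in its 2 probe sets. Sox13, a factor of gamma delta T cells, read 683, 729 and 729 in saline, 529.9, 625 and 585 in OVA, and 748, 631 and 713 with the agonist (-0.30, limma adjusted p = 0.0967).

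Klf1, the activator of adult globin genes, had a log2 difference of -0.17 (limma adjusted p = 0.695). In OVA against saline 0 of 4 tested probe sets of the red cell list passed by limma. An unadjusted limma p under 0.05 was seen for 1 of the 4, against 29.1% of all tested probe sets. Both tested target genes of Gata1 and Klf1 fell in OVA: Alas2, the first enzyme of erythroid haem synthesis (-0.99, limma adjusted p = 0.0278), and Hba-a1, alpha globin (-0.66, limma adjusted p = 0.0181). Hba-a1 was higher with the agonist than in OVA (0.61, limma adjusted p = 0.0411), a call kept without agonist replicate 3 and lost without any other array (adjusted p up to 0.146). These 2 genes are also the tested red cell markers, whose sum with Epb42, above the limit on no array, was 9014 to 10508 in saline, 5688 to 6303 in OVA and 8148 to 9747 with the agonist. Gata4, a factor of heart muscle, read 98.4, 85.2 and 111 in saline, 90.5, 51.2 and 63.7 in OVA, and 68.8, 50.1 and 143 with the agonist (-0.55, limma adjusted p = 0.376). Of 7 heart muscle markers, 4 fell in OVA (summed intensity 3387 to 4142 in saline, 2820 to 3631 in OVA and 3660 to 4012 with the agonist). Their part in the result was not tested.

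Members known from organs other than lung gave 7 tested probe sets of the 24 on the array, of which Pax4 passed. Sox10, a factor of neural crest and glia, had OVA arrays above all saline arrays: 112, 109.5 and 68.7 in saline, 147, 131 and 129 in OVA, and 154, 95.0 and 151 with the agonist (0.52 ± 0.25, limma adjusted p = 0.206). Six2, of kidney progenitors, read 165, 151 and 116 in saline, 72.6, 126 and 61.1 in OVA, and 60.9, 135 and 70.1 with the agonist. Both challenged groups overlapped saline (-0.79 ± 0.36 and 0.02; limma adjusted p = 0.195 for the first). Sox3, a factor of the early nervous system, read 143, 159 and 86.4 in saline and 90.2, 78.4 and 83.5 in OVA in 1 of its 4 probe sets (-0.58, limma adjusted p = 0.153). Its other 3 probe sets were above the limit on no array. Pax1, of the vertebrae, had a log2 difference of -0.33 (limma adjusted p = 0.195). Pax3, of neural crest, and Foxn1, of thymic epithelium, did not pass and had most arrays under the limit, so that no size is given.

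**Figure D5:**
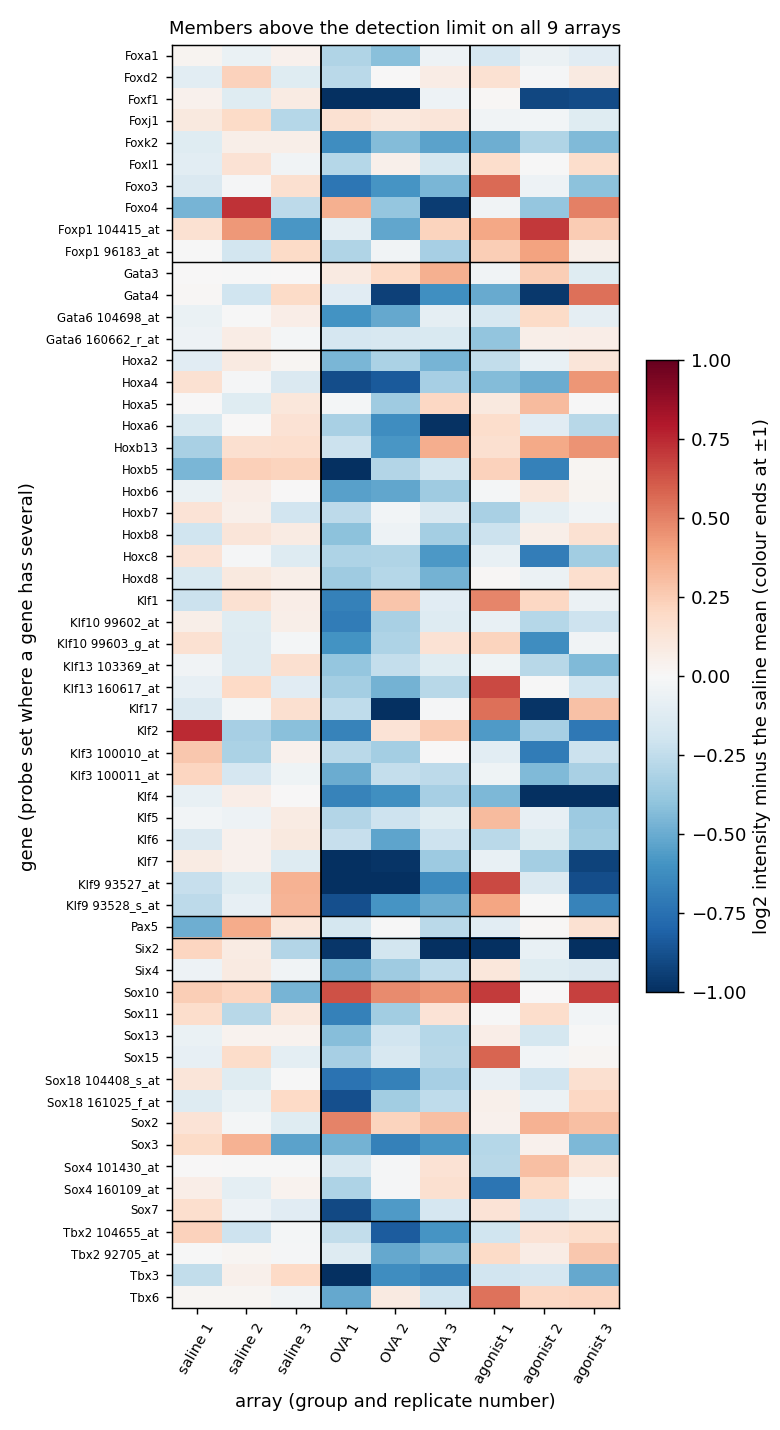
Log2 intensity of the 58 member probe sets above the detection limit on all 9 arrays, minus the mean of the saline arrays, by family (rows) and array (columns); colour ends at ±1. Most rows are below saline in the OVA columns, and agonist replicate 1 is above replicate 3 in Klf9, Foxo3, Klf7 and Klf13.

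Other lung transcription factors outside the 8 families moved in both directions: of 17 tested probe sets, 2 rose and 1 fell in OVA. Elf3, an epithelial factor induced by inflammation, rose from 72.6 to 178 (1.38, limma adjusted p = 0.0323), and Id2, an inhibitor of helix-loop-helix factors, from 905 to 1278 (0.50, limma adjusted p = 0.0384). Hopx, a homeodomain protein of type 1 alveolar cells, fell (-0.48, limma adjusted p = 0.0379). The median of that list was -0.26, against -0.33 for the members and -0.08 for all tested probe sets. Of the 3 tested probe sets of Eya and Dach genes, the cofactors of sine oculis factors, and the 4 of Gata cofactors, none passed by limma in any comparison, with 1 and 2 at an unadjusted p under 0.05 in OVA against saline. None of 3 tested genes of lymphocyte trafficking known as Klf2 targets (1 at an unadjusted p under 0.05) and none of 2 known as targets of Tbx21, the factor of type 1 helper T cells (0 at an unadjusted p under 0.05), passed by limma in that comparison.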

How the data were processed

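Per the labels, total RNA of mouse lung was measured on 9 arrays. The deposited intensity values, 1 per probe set and array, are linear and include values below 0. How the authors subtracted background, summarised probes and scaled arrays is not given in the sources used here. Genes were named from the array's probe annotation, and 103 of 103 member genes were found by gene ID in RefSeq (GRCm38.p6). Each array was scaled to the mean of the 2% trimmed means, values under the 20th percentile (3.10) were set to it, log2 was taken, and 7920 of 12422 probe sets (66 controls left out) were tested. One limma model (limma 3.58.1, R 4.3.3) over all 9 arrays gave the 3 comparisons, two-sided, with Benjamini-Hochberg adjustment over the 7920 and a threshold of 0.05. A bound ("at least") sets the brighter group's mean log2 against the detection limit, or the value itself where higher. Group values are mean ± SD of 3 arrays. The number of arrays limits the precision. Only the floor, the fit and the adjustment were tested on simulated data, not the scaling, the filter or values at or below 0.

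Members, lists and markers were chosen with earlier results of these data known. Named are the members past the threshold, the 2 largest changes per family, a list of known lung, blood and vessel factors, and up to 4 genes per list; Hoxa2, Hoxa6, Hoxb3, Hoxd8, Klf7 and Sox10 were added after their values were seen. Alternatives were other scalings, floors, filters, priors and weights, a fit to just the arrays of a comparison, a block for the replicate number, and each array left out.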

Additional observations from a re-analysis of the deposited data

How the results depend on the processing

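In OVA against saline, 6 member probe sets passed; 13 did at an adjusted p of 0.1, 2 with a change of at least 2-fold, 2 with the replicate number as a block, and 2 to 9 when each array was left out in turn (2 without OVA replicate 1, OVA replicate 2, saline replicate 2 or saline replicate 3, 3 without saline replicate 1, and 9 without agonist replicate 3). Over all tested probe sets 9.49% passed in OVA against saline, 0.631% with the block, 3.04% at 2-fold and 19.1% at 0.1. Dropping a single array gave shares from 1.02% (OVA replicate 1) to 10.9% (agonist replicate 3). The member counts rose and fell mostly with these shares. In agonist against OVA, 3 members passed in the main setting, 6 at an adjusted p of 0.1 and 5 with an intensity trend and robust prior. With only the 6 arrays compared 1 passed, with the block 2, and with an array left out 2 to 3. The shares of all tested probe sets were 2.75%, 10.5% at 0.1, 5.72% with the trend, 0.197% with the 6 arrays and 0.177% with the block. With an array left out they ran from 0.0895% (without OVA replicate 1) to 6.71% (without agonist replicate 3). Pax4 and Six4 passed in both comparisons with the block and with any array left out. Their OVA values were all set to 1 floor, so these settings could not give those values a spread. With the floor at the 40th percentile Six4 passed in neither comparison, and with the arrays' mean as the rule Pax4 was not tested. No called member changed direction. Agonist against saline gave 0 in each setting run. Deviations of same-numbered arrays correlated weakly (9 pairs, r from -0.139 to 0.169, 2 above 0.1), and 8 of 18 best partners had the own number. The saline and OVA pairs were all above 0 (0.169, 0.112 and 0.0354), and pairs with agonist arrays had both signs. The numbers are not taken as pairs, but these values do not settle whether saline and OVA arrays of 1 number belong together. Over all probe sets the block left 50 of 752 and 14 of 218 calls. Without OVA replicate 1, 80 and 7 of all probe sets passed. The share of member probe sets below 0 in OVA against saline ran from 79.7% (without OVA replicate 1) to 94.2% (filter at the 60th percentile) among settings with a filter, and was 62.4% of 141 with none, against 50.6% of all. With equal array medians 434 of 691 calls over all probe sets were higher, against 402 of 752, and members stayed at 0 higher and 6 lower. Tbx2 passed in agonist against OVA under 4 settings (adjusted p from 0.0296 to 0.0463), Hoxa2 in OVA against saline under 3, Klf4 and Foxo3 without agonist replicate 1 (0.0379 and 0.0483), Klf7 without agonist replicate 3 (0.048) and Sox7 without OVA replicate 3 (0.0427). The genes named outside the 8 families lost their call in OVA against saline without at least 3 of the 9 arrays each (adjusted p up to 0.139). Of the 9 fits without 1 array, the dimmer Kmt2a probe set and Thbd passed in only 1, and Tek and Vegfa in 2. With equal array medians that Kmt2a probe set, Thbd, Tek and Hopx did not pass in OVA against saline. With quantile normalization that Kmt2a probe set did not pass either. In agonist against OVA, Pbx2, Tek and Ezh2 each lost theirs without 7 of the 9 arrays and Hba-a1 without 8 (up to 0.173); Pbx2 also lost it with quantile normalization, and Pbx2 and Tek with equal array medians. Probe sets at or under the detection limit have no usable level, and 3 arrays a group limit all counts.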
